A study of Rattus norvegicus with 24 samples.

Results

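The 9 genes followed here encode enzymes and regulators that make or break down glycogen in skeletal muscle: Pygm, Phkg1, Phka1, Phkb, Gys1, Gbe1, Gyg1, Ppp1r3a and Ugp2. They were taken by gene symbol from the table of transcripts, which held all 9 of them among 15273 genes, and the values of all transcripts of a gene were added up. All 9 passed the filter on low values (3 or more muscles at 1 or above), as did 11196 genes in all. The muscles came from 12 adult male Wistar rats, 3 for each of 2, 10, 20 and 30 days of daily training. In each rat the left tibialis anterior, a fast muscle that lifts the foot, was trained through the nerve by an implanted pulse generator, with the opposing plantarflexors contracting at the same time to give resistance. The unstimulated right muscle of the same rat was the contralateral control, and both muscles were taken 1 h after the last session, so each value holds the response to that session as well as to the training before it. The contralateral muscle shared the rat and the pulse generator in the abdomen. The leg incision and the electrodes were on the left side only, so they go with training in each comparison. Muscles of sham-operated rats were not analysed here.

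Glycogen is the branched glucose store of muscle. Glycogenin primes a new particle, glycogen synthase lengthens its chains with glucose from UDP-glucose, and the branching enzyme adds the branch points. Glycogen phosphorylase releases glucose 1-phosphate during contraction, and it is switched on by phosphorylase kinase, an enzyme of regulatory, catalytic and calmodulin subunits that responds to calcium and to adrenaline through protein kinase A. Protein phosphatase 1, held on the particle by targeting subunits, works in the other direction by activating the synthase and inactivating phosphorylase.

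The deposited values were read as TPM-type. They added up to 634431 in each of the 24 muscles, and for some short transcripts the value was close to 1 constant divided by length. Among 735 to 829 transcripts that span 150 to 1000 bases, the value times the span fell within 0.1% of 1 constant for 38 to 61 transcripts of a muscle, while values without length gave at most 9 so close together. That constant was 172 in the contralateral muscle of 30-day rat 2 and 98.1 to 128 in the others. If it stands for 1 read, which was not tested, a larger constant means fewer reads behind a value. Total depth and the precision that it gives are unknown. Each muscle was rescaled here by a median-of-ratios factor, which lay between 0.778 and 1.14 and was lowest in the contralateral muscle of 30-day rat 1. The scale matters for the number of calls in each direction. At 2 days 1728 genes were higher and 1507 lower with rescaling, against 2132 and 731 on the values as deposited. At 10 days the numbers were 1746 and 1494, against 2096 and 682. At 30 days they were 1245 and 1059, against 647 and 2590. With rescaling the median change over all genes at 30 days was -0.01 on the log2 scale, and as deposited it was -0.18. Markers of muscle fibres were high in every group. Their summed level ranged from 44052 to 55628 in the 12 contralateral muscles and from 39441 to 71027 in the trained muscles. At 10 days 3 of the 4 fibre markers tested were higher and 1 was lower. Some markers of other cell types changed with training: of 5 for macrophages 3, 4, 5 and 5 were higher at the 4 time points, and of 4 for fibroblasts 3, 4, 4 and 4. Of 4 for Schwann cells 1 was higher at 2 days and 2 were lower at 30 days. None of the adipocyte and blood markers tested passed at any time point. The macrophage markers added up to between 3.80 and 11.4 in the contralateral muscles and to between 12.5 and 35.5 in the trained muscles, with none of them at 0. The fibroblast markers ranged from 52.2 to 169 and from 155 to 509, and the 6 fast-fibre markers from 46016 to 54746 and from 31113 to 46014. The 5 slow-fibre markers ranged from 1090 to 2251 and from 563 to 1770. Of these 5, 3 were lower at 2 days and 1 at 10 days, and none was higher at any time point. Of the 6 fast-fibre markers 3, 4, 4 and 3 were lower at the 4 time points, and 1 was higher at 10 days. Of 3 endothelial markers tested 1 was lower at 2 days, and 2, 2 and 1 were higher at 10, 20 and 30 days. Of 3 for smooth muscle 2 were higher at 2 days and 1 at 10 days. The part of these shifts in the changes described here was not tested, and in bulk RNA fewer cells of a type and less RNA per cell cannot be told apart.

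In contralateral muscle the members lay far apart in level. With values taken as scaled for length, levels of different genes can be set side by side. Pygm, muscle glycogen phosphorylase, stood at 3815 ± 227 (SD, n = 12) and was number 25 of the 11196 genes. Ugp2, which makes UDP-glucose, followed at 301 ± 29.3, Gyg1, glycogenin, at 171 ± 19.3 and Phka1, the muscle alpha subunit of phosphorylase kinase, at 141 ± 15.3. Gys1, muscle glycogen synthase, and Phkg1, the muscle catalytic subunit of the kinase, were at 109 ± 7.53 and 104 ± 10.7 and did not differ beyond their spread. Phkb, the beta subunit of the kinase, was at 83.4 ± 14.6, Gbe1, the branching enzyme, at 56.1 ± 7.65 and Ppp1r3a, the muscle targeting subunit of protein phosphatase 1, at 45.4 ± 5.46. The ranges of Ppp1r3a and Gbe1 also overlapped (38.7 to 53.7 and 43.7 to 69.5). Across the 4 contralateral groups no member differed by limma's F test with Benjamini-Hochberg adjustment, none had an unadjusted p under 0.05, and the lowest adjusted p among members was 0.559, for Ppp1r3a. Over all genes that test called 7, and 1197 had an unadjusted p under 0.05.

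**Figure D1:**
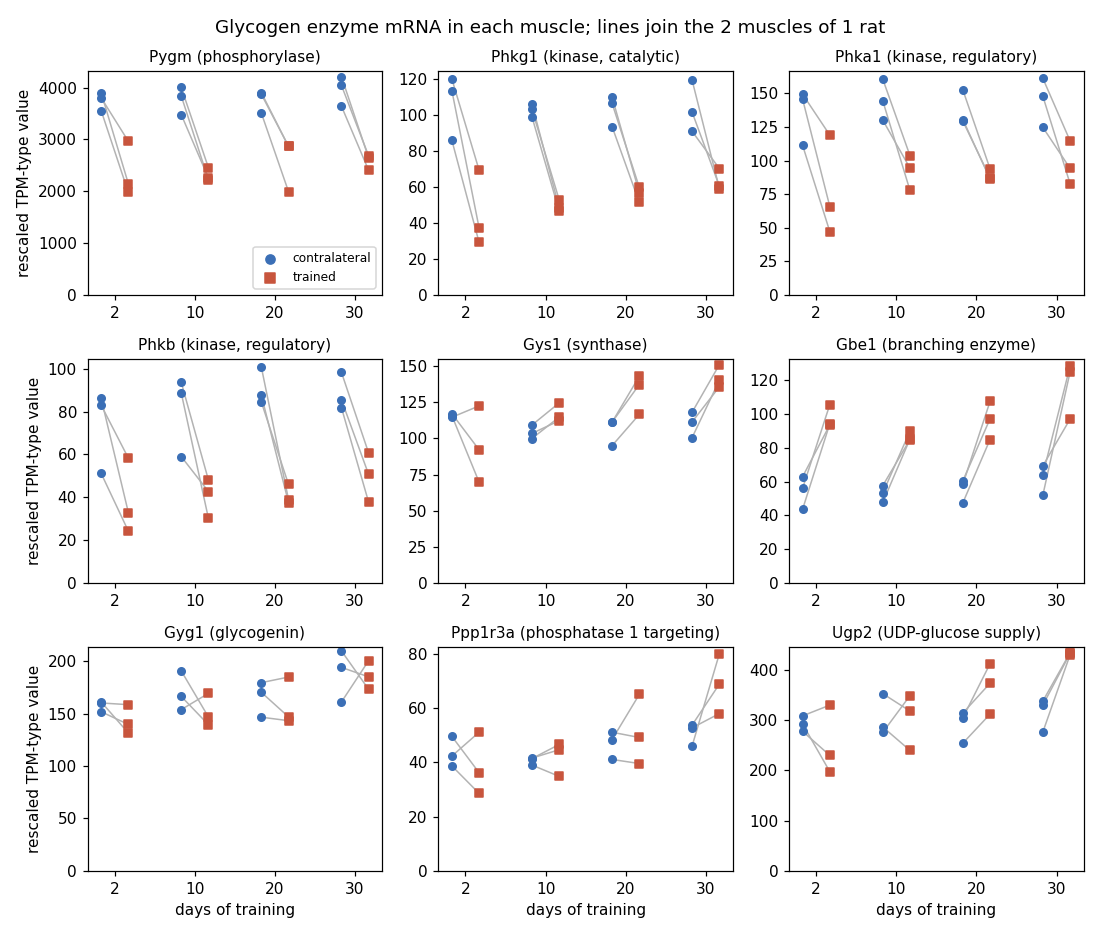
The rescaled TPM-type value of each gene (vertical axis, from 0) in every muscle, by days of training. Circles are contralateral muscles, squares are trained muscles, and a grey line joins the muscles of 1 rat. The lines of Pygm, Phkg1, Phka1 and Phkb run down and those of Gbe1 run up in 12 of 12 rats, while those of Gys1, Ppp1r3a and Ugp2 run up in 3 of 3 rats at 30 days.

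The first question was which of these genes differed between trained and contralateral muscle after each length of training. The 12 contralateral muscles formed 1 control group for all time points, so the comparisons share their controls. At 2, 10 and 20 days 5 of the 9 members passed the limma test (adjusted p under 0.05), 4 lower and 1 higher, and at 30 days 8 passed, 4 lower and 4 higher. Over all genes 28.9%, 28.9%, 21.4% and 20.6% passed at the 4 time points. The genes of breakdown, Pygm, Phkg1, Phka1 and Phkb, were lower at all 4 time points, which held for 2.95% of all genes, and Gbe1 was higher at all 4, which held for 5.24%. Median log2 fold changes of the 9 members were -0.28, -0.16, -0.11 and 0.13, beside -0.01, -0.03, -0.03 and -0.01 over all genes. Set against their own contralateral muscle over all 12 rats, with the rat as a block, the same 5 genes passed, 4 lower and 1 higher, beside 40.1% of all genes, 20.5% lower and 19.7% higher. Without either muscle of 2-day rat 2, Gys1 passed there as well, as higher (0.21, limma adjusted p = 0.0268).

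Pygm fell in every rat. The 12 contralateral values ran from 3480 over a median of 3857 to 4213. Trained muscles held 2965, 1978 and 2144 at 2 days, 2256, 2221 and 2453 at 10 days, 2866, 2864 and 1992 at 20 days, and 2682, 2404 and 2644 at 30 days. All trained values lay below all contralateral values, at each time point. Of all genes 6.18%, 8.15%, 4.81% and 6.08% had their 3 trained values below the control range at 2, 10, 20 and 30 days. Log2 fold changes of Pygm were -0.71, -0.72, -0.59 and -0.57, each with a standard error of 0.11, and the largest of the limma adjusted p-values was 5.92e-04. In linear terms the 2-day level was 0.611 and the 30-day level 0.676 of control on the log2(value + 1) scale. Over the 12 pairs the change was -0.65 (SE 0.06, limma adjusted p = 4.89e-07), with the trained muscle lower in 12 of 12 rats, as for 6.57% of all genes.

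Phkg1 also fell in every rat, and it had the lowest log2 fold change of the members at 2 days. Contralateral values ran from 85.7 over a median of 104 to 120. Trained values were 69.2, 29.1 and 37.1 at 2 days, 52.7, 48.3 and 46.5 at 10 days, 51.3, 59.7 and 56.8 at 20 days, and 70.1, 60.3 and 59.0 at 30 days. Again no trained value reached the control range, and rat 1 of the 2-day group was the least changed of its group. Log2 fold changes were -1.27, -1.06, -0.88 and -0.71 (SE 0.15; largest limma adjusted p = 0.00162).

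The regulatory subunits of the kinase followed. Phka1 ranged from 111 to 161 in contralateral muscle, with a median of 145. It was at 119, 47.0 and 65.7 after 2 days, 94.4, 77.9 and 104 after 10 days, 93.9, 86.3 and 87.2 after 20 days, and 94.2, 82.7 and 115 after 30 days. One trained muscle at 2 days and another at 30 days lay inside the control range, and in each of the 12 rats the trained muscle was the lower. Its log2 fold changes were -0.96, -0.61, -0.65 and -0.53 (SE 0.17; limma adjusted p = 1.14e-04, 0.00721, 0.00631 and 0.0234). The call at 10 days was lost on the values as deposited (limma adjusted p = 0.0764) and without trained muscle 2 of that group (0.0742). With controls of the same time point only, it was lost at 20 days (0.0680) and 30 days (0.111), and at 30 days also without trained muscle 1 (0.0813) or 2 (0.164). Over the 12 pairs the change of Phka1 was -0.69 (SE 0.08, limma adjusted p = 5.63e-06).

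Phkb varied most in the controls, from 51.2 to 101 with a median of 85.9. Trained values were 58.3, 24.2 and 32.9, then 42.7, 30.1 and 48.0, then 38.9, 37.5 and 46.0, and at 30 days 50.7, 37.7 and 60.7. The low contralateral value of 51.2 came from 2-day rat 2, which also held the lowest trained value, 24.2. Log2 fold changes were -1.17, -1.03, -0.996 and -0.74 (SE 0.20; limma adjusted p = 1.20e-04, 4.20e-04, 8.98e-04 and 0.0113), with the trained muscle lower in 12 of 12 rats. At 30 days the call was lost without trained muscle 2 (limma adjusted p = 0.126).

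**Figure D2:**
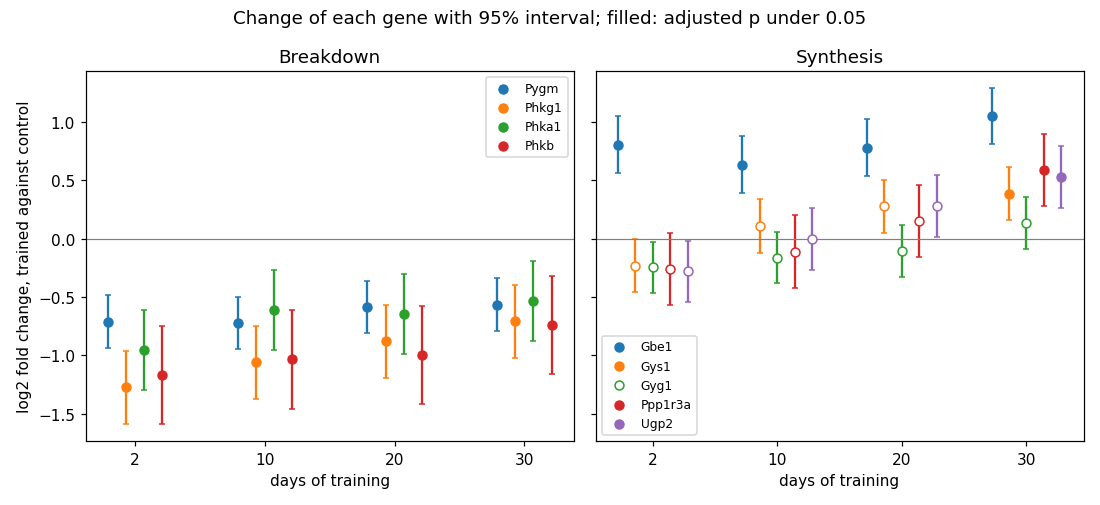
Log2 fold change of each gene, 3 trained muscles against the 12 contralateral muscles, on the log2(value + 1) scale (vertical axis) by days of training, with 95% intervals as bars. Filled points passed the limma test at an adjusted p under 0.05 and open points did not. The breakdown genes lie between -1.27 and -0.53 throughout, Gbe1 between 0.63 and 1.05, and the other synthesis genes lie between -0.28 and -0.23 at 2 days, where none passed, and between 0.13 (Gyg1, which did not pass) and 0.59 at 30 days.

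Among the genes of synthesis, Gbe1 was the one that rose at every time point. Contralateral values ran from 43.7 over a median of 56.9 to 69.5, and trained values were 94.4, 93.7 and 106 at 2 days, 89.9, 84.9 and 85.2 at 10 days, 97.2, 85.0 and 108 at 20 days, and 97.2, 129 and 125 at 30 days. All trained muscles lay above all contralateral muscles, which held for 8.57%, 10%, 8.23% and 7.48% of all genes at the 4 time points. Log2 fold changes were 0.80, 0.63, 0.78 and 1.05 (SE 0.12; largest limma adjusted p = 2.28e-04), so that the 30-day level was 2.07 times control. Every call on Gbe1 held under every alternative that was run.

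Promoter sequences are printed for Pygm, Phkg1 and Phka1, breakdown genes that fell in every rat, and for Gbe1, which rose in every rat. Phkb fell in every rat too, and its promoters are described below but not printed. They are RefSeq sequence on GRCr8, 250 bases before to 50 after the start site, 5′ to 3′ along the gene's strand. E-boxes are in capitals (CANNTG, a pattern that matches at the same place on either strand, though its middle letters can differ between strands). The regions are chr1:213119555-213119854 on the plus strand, chr12:32474827-32475126 on the plus strand, chrX:71778072-71778371 on the minus strand and chr11:22181026-22181325 on the plus strand.
Pygm: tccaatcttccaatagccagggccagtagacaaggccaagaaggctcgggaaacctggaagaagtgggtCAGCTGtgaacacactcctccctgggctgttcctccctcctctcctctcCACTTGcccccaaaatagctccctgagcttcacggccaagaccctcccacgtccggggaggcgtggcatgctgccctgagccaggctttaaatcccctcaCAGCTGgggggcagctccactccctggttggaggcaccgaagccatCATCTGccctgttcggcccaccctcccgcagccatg
Phkg1: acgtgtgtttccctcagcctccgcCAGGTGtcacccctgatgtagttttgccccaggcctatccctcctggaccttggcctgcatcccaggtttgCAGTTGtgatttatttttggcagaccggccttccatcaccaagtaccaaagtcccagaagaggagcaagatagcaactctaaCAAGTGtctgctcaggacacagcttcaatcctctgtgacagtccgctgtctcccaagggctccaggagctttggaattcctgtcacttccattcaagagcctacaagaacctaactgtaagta
Phka1: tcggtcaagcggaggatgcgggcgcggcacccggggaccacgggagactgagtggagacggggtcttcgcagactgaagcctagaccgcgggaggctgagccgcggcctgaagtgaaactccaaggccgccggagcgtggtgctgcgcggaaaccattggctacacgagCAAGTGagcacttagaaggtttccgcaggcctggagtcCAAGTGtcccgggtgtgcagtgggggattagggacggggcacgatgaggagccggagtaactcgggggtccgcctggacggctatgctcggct
Gbe1: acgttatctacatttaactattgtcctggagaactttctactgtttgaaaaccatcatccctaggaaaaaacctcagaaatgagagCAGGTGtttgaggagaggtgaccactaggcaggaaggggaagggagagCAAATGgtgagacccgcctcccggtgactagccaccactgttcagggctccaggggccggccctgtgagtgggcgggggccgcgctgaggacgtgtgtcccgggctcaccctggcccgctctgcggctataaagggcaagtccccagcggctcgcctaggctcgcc

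The E-box was searched because muscle regulatory factors and Myc bind such letters. It occurred 4 times in the promoter of Pygm, 3 times in that of Phkg1, and 2 times in those of Phka1 and Gbe1. That of Phkb, from either of its 2 start sites, and that of Ugp2 held none. Gys1 and Gyg1 held 2 each and Ppp1r3a 4. Of all 33465 promoters of this length, 72.1% held at least 1. The form CACGTG, which is an E-box too, was found in Gyg1 among the members and in 6.42% of all promoters. The binding consensus of MEF2, a muscle transcription factor, was found in Ppp1r3a and in 3.29% of all promoters. It was 1 of several motifs searched. GC, CCAAT and TATA boxes, in 33.1%, 37.5% and 14.2% of all promoters, occurred in some members. M-CAT and AP-1 sites, in 5.17% and 7.33% of all promoters, occurred in no member. A match in letters is a description and says nothing of binding.

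Gys1, Ppp1r3a and Ugp2 passed at 30 days only. At 2 days their log2 fold changes were -0.23, -0.26 and -0.28, with limma adjusted p-values of 0.117, 0.199 and 0.103. At 10 days they were 0.11, -0.11 and -0.01, at 20 days 0.27, 0.15 and 0.28, and none of these 9 values passed. At 30 days they rose by 0.38, 0.59 and 0.53 (limma adjusted p = 0.0150, 0.00676 and 0.00444).

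Gys1 was at 95.03 to 118 in contralateral muscle, with a median of 111. Trained muscles held 123, 69.8 and 92.2 at 2 days, 115, 112 and 125 at 10 days, 137, 143 and 117 at 20 days, and 151, 140 and 136 at 30 days. At 2 days muscle 1 was above and muscles 2 and 3 were below the control range, and at 30 days all 3 were above it. Ppp1r3a ranged from 38.7 to 53.7 in contralateral muscle and held 51.1, 28.5 and 36.2, then 46.6, 34.8 and 44.6, then 49.1, 39.5 and 65.0, and at 30 days 57.9, 68.8 and 80.0. Ugp2 ranged from 254 to 353 in contralateral muscle. Its trained values were 330, 197 and 230, then 318, 240 and 349, then 412, 312 and 374, and at 30 days 433, 434 and 430, which were the most even of any group. For all 3 genes the 30-day muscles lay above all contralateral muscles, as did 7.48% of all genes.

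These 30-day calls were less firm than those on breakdown. With the rat as a block they were lost (limma adjusted p = 0.0907 for Gys1, 0.119 for Ppp1r3a and 0.0531 for Ugp2). On the values as deposited they were lost as well, at log2 fold changes of 0.16, 0.37 and 0.30 (limma adjusted p = 0.351, 0.101 and 0.0978). Under either setting 5 members were called at 30 days in place of 8, of which 4 were lower, and with controls of the same time point only 4 were called. The call on Gys1 was also lost without trained muscle 1 (0.0832) or 2 (0.0537), and that on Ppp1r3a without trained muscle 3 (0.0775). Without trained muscle 1 of the 2-day group, Gys1, Ppp1r3a and Ugp2 passed at 2 days as lower (-0.44, -0.48 and -0.49, limma adjusted p = 0.00318, 0.0259 and 0.00579), which gives 8 members in place of 5.

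Gyg1 did not pass at any time point. It ranged from 147 to 210 in contralateral muscle, and trained muscles held 159, 132 and 140, then 147, 139 and 169, then 185, 143 and 147, and at 30 days 173, 185 and 201. Its log2 fold changes were -0.25, -0.16, -0.11 and 0.13 (SE 0.11; limma adjusted p = 0.0862, 0.273, 0.527 and 0.415). The 95% interval at 30 days ran from -0.09 to 0.35.

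Ratios of 2 genes in 1 muscle do not depend on how a muscle was scaled, and they are given as a description. Pygm over Gys1 was 35.1 ± 2.03 in contralateral muscle (SD, n = 12) and ran from 30.7 to 37.8. It was 25.3 ± 2.71, 19.7 ± 0.0662, 19.3 ± 1.99 and 18.1 ± 1.21 (SD, n = 3 each) in trained muscle at 2, 10, 20 and 30 days. No trained muscle reached the control range, the highest being 28.4 at 2 days, and the ratio was lower in the trained muscle of 12 of 12 rats. Pygm over Gbe1 was 69.3 ± 11.3 in contralateral muscle and 24.3 ± 6.19, 26.7 ± 1.91, 27.2 ± 7.84 and 22.5 ± 4.61 in trained muscle, again lower in 12 of 12 rats.

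**Figure D3:**
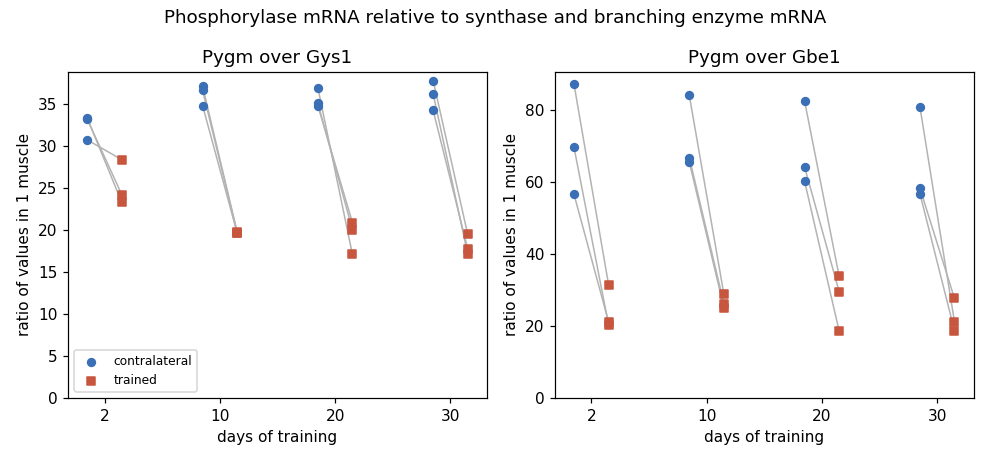
Ratio of the values of Pygm and Gys1 (left) and of Pygm and Gbe1 (right) in each muscle, from 0, by days of training, with contralateral muscles as circles, trained muscles as squares and a line for each rat. Pygm over Gys1 lies at 30.7 to 37.8 in contralateral muscle and at 17.1 to 28.4 in trained muscle.

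The subunits of phosphorylase kinase were set against each other in the same way. Phkg1 over Phka1 was 0.743 ± 0.0745 in contralateral muscle and 0.588 ± 0.0270, 0.542 ± 0.0873, 0.630 ± 0.0746 and 0.663 ± 0.129 in trained muscle, lower in 10 of 12 rats. Phka1 over Phkb was 1.72 ± 0.247 in contralateral muscle and 1.99 ± 0.0482, 2.32 ± 0.232, 2.20 ± 0.273 and 1.98 ± 0.185 in trained muscle, lower in 1 of 12 rats. Phkg1 over Phkb was 1.28 ± 0.242 in contralateral muscle and between 1.17 and 1.38 on average in the trained groups. The ranges of trained and contralateral muscle overlapped for each of these 3 ratios. Phkg2, the catalytic subunit known from liver, was looked up after its values had been seen: it was at 6.81 ± 1.25 in contralateral muscle and passed at none of the time points.

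Whether levels moved with the length of training was asked by direct contrasts between trained groups. Between successive time points (10 against 2, 20 against 10 and 30 against 20 days) no member passed, where 1.93%, 0.170% and 0.0357% of all genes did. Before adjustment limma put 1 member under 0.05 at 10 against 2 days, Gys1 (0.34), 0 members at 20 against 10 days and 1 at 30 against 20 days, Ppp1r3a (0.44). From 2 to 30 days 4 members passed, all higher, beside 7.07% of all genes that were higher and 7.91% that were lower. They were Ugp2 (0.81, SE 0.16, limma adjusted p = 0.00152), Ppp1r3a (0.85, SE 0.19, 0.00376), Gys1 (0.62, SE 0.14, 0.00404) and Phkg1 (0.57, SE 0.19, 0.0468). With the rat as a block none of the 4 passed (0.0776, 0.160, 0.0659 and 0.155 in the same order), and on the values as deposited only Ugp2 did (0.47, limma adjusted p = 0.0444). Pygm and Gbe1 differed by 0.15 and 0.24 between 30 and 2 days, with 95% intervals from -0.14 to 0.43 and from -0.06 to 0.55, and did not pass.

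The muscles of the 2-day group were uneven. In muscle 1 of that group Pygm, Phkg1, Phka1, Phkb, Gys1, Gyg1, Ppp1r3a and Ugp2 were each higher than in muscles 2 and 3. Without muscle 1, 7 members passed between 2 and 30 days, without muscle 2, 2 passed, and 3 passed between 2 and 10 days without muscle 1. Leaving out trained muscle 2 of the 30-day group brought the members called at 30 days from 8 to 5. Without the contralateral muscle of 30-day rat 1, which had the lowest scaling factor, the number of members called stayed at 5, 5, 5 and 8.

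The table gives several transcripts for some of these genes. On Rnor_6.0, Pygm-201 spans chr1:221756286-221771143 on the plus strand, Phkg1-201 chr12:30450316-30464352 on the plus strand, Gys1-201 chr1:101427195-101447092 on the plus strand and Ppp1r3a-201 chr4:41171486-41212072 on the minus strand, each the only transcript of its gene here. Gbe1 had 3 transcripts on chromosome 11, from 7210209 to 7485890 in all, which made up 53.5%, 28.7% and 17.8% of its level in contralateral muscle. All 3 rose at all 4 time points (log2 fold changes from 0.55 to 1.10, largest limma adjusted p = 0.0226 over all transcripts tested). Of the 4 Phka1 transcripts on chromosome X, Phka1-205 (72377021 to 72515057) carried 81.9% of the gene's level and was lower at all 4 time points (-0.88, -0.63, -0.65 and -0.56, largest limma adjusted p = 0.00860). For Phkb on chromosome 19, Phkb-202 (22033228 to 22194740) carried 84.7% and was lower at all 4 (-1.15, -1.05, -0.98 and -0.78, largest limma adjusted p = 0.00646), and Phkb-201, with the other 15.3%, was lower at 2, 10 and 20 days.

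In Ugp2 the minor transcript held a smaller mean share in the trained groups. Ugp2-202 on chromosome 14 (106208514 to 106234247) made up 12.7% ± 5.40 of the gene in contralateral muscle, with a range from 2.03% to 19.8%, and 5.30% ± 0.543, 5.68% ± 2.40, 5.64% ± 0.812 and 6.93% ± 1.78 in the trained groups. The ranges overlapped, and the share itself was not tested. Ugp2-202 fell at 2 days (-1.29, SE 0.44, limma adjusted p = 0.0391) and did not pass later, while Ugp2-201 (106208176 to 106248539) rose at 30 days (0.62, SE 0.14, limma adjusted p = 0.00411). How reads were split between such overlapping transcripts is set by the authors' quantification. Gyg1-201 on chromosome 2 (104916738 to 104955807) made up 78.9% ± 3.96 of Gyg1 in contralateral muscle and between 79.2% and 81.8% on average in the trained groups.

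A wider list of 41 genes of glycogen metabolism and its control was read in the same fit. The table held 36 of them and 33 passed the filter. Of these 33, 10 passed at 2 days (8 lower and 2 higher), 16 at 10 days (12 and 4), 16 at 20 days (12 and 4) and 14 at 30 days (11 and 3). Among all genes 13.5%, 13.3%, 9.64% and 9.46% were lower and 15.4%, 15.6%, 11.7% and 11.1% were higher. With the rat as a block, 7 genes passed at 20 days and 7 at 30 days. On the values as deposited the split at 10 days was 6 higher and 8 lower.

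Genes that work beside phosphorylase were among those that fell. Pgm1, which interconverts glucose 1-phosphate and glucose 6-phosphate, was lower at 2, 10 and 20 days (log2 fold changes of -0.70, -0.63 and -0.38, limma adjusted p = 1.26e-05, 3.51e-05 and 0.00680). With the rat as a block its 20-day call was lost (0.180). At 30 days Pgm1 did not pass, though its trained values of 581, 575 and 570 lay below the lowest contralateral value, 643. At that time point 6.08% of all genes had their 3 trained values below the control range. Stbd1, which tethers glycogen to membranes, went from 122 ± 16.9 in contralateral muscle to 50.4 ± 10.0 at 2 days (-1.26, limma adjusted p = 1.04e-05) and 66.0 ± 28.1 at 10 days (-0.94, 2.87e-04). At 20 and 30 days Stbd1 changed by -0.56 and -0.67 (0.0259 and 0.00869), calls that were lost with the rat as a block (0.128 and 0.0562).

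Calmodulin is the delta subunit of phosphorylase kinase. Calm2 was lower at all 4 time points (-0.51, -0.68, -0.74 and -0.76, largest limma adjusted p = 6.19e-05), and its sum holds transcripts placed on chromosomes 1 and 15, listed under separate gene identifiers, and how reads were split between them is uncertain. The transcript with the higher mean over the 24 muscles was Calm2-202, at 82.3 against 81.5 for Calm2-201. With Calm2-202 alone the calls at 2, 10 and 30 days were lost. In contralateral muscle Calm2-201 was the higher, at 110 against 91.3. Pgm2l1, a relative of the phosphoglucomutases at a level of 4.23 ± 0.389 in contralateral muscle, was lower at all 4 time points (-0.59, -0.52, -0.47 and -0.28), with the 30-day call lost with the rat as a block (0.234). Pgm2, at about 1.57, was higher at 10 and 20 days (0.44 and 0.58) and passed at neither with the rat as a block (0.237 and 0.0799).

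The subunits of AMP-activated protein kinase, an energy sensor that can bind glycogen, went in different directions. Prkag3, the gamma subunit typical of fast muscle, was at 34.4 ± 8.60 in contralateral muscle and at 29.9 ± 5.38, 15.1 ± 4.70, 8.04 ± 1.15 and 7.86 ± 0.891 in the trained groups. The log2 fold changes of Prkag3 were -1.15, -1.94 and -1.97 at 10, 20 and 30 days (largest limma adjusted p = 5.96e-05), and at 2 days, with -0.17, it did not pass. Prkag2, another gamma subunit, rose from 1.24 ± 0.409 to 2.97 ± 0.625 at 20 days and 3.14 ± 0.815 at 30 days (0.83 and 0.89, limma adjusted p = 2.39e-04 and 1.57e-04), and its call at 10 days (0.56, 0.00606) was lost with the rat as a block (0.203). The beta subunit Prkab2 was lower at all 4 time points (-0.41, -0.51, -0.56 and -0.50). With the rat as a block its calls at 2 and 30 days were lost (0.106 and 0.171), and as deposited those at 2, 10 and 20 days were (0.300, 0.164 and 0.0550). Prkab1 was lower at 10 and 30 days (-0.44 and -0.71), and the 30-day call was lost with the rat as a block (0.0568). Prkaa1, a catalytic subunit, was higher at 2 and 10 days (0.75 and 0.58, limma adjusted p = 5.74e-05 and 8.36e-04) and at 30 days (0.39, 0.0254, and 0.218 with the rat as a block).

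Genes of the phosphatase and hormone branches were fewer. Ppp1r1a, inhibitor 1 of protein phosphatase 1, fell to 52.5 ± 10.1, 48.6 ± 9.64 and 41.8 ± 3.61 at 10, 20 and 30 days from 76.6 ± 7.79 in contralateral muscle (-0.55, -0.66 and -0.86, largest limma adjusted p = 0.00102). Gsk3a, a kinase that inactivates glycogen synthase, was lower at 10, 20 and 30 days (-0.36, -0.27 and -0.45), with the 20-day call lost with the rat as a block (0.282) and the 10-day call lost as deposited (0.0702). Gsk3b, its paralogue, passed at no time point, though it did at 2 days with the rat as a block (0.0456). Neither did Ppp1r3c, a targeting subunit of protein phosphatase 1 that stood at 251 ± 56.6 in contralateral muscle, above Ppp1r3a. Prkar2a, a regulatory subunit of protein kinase A, was lower at 2, 10 and 20 days (-0.63, -0.65 and -0.60, largest limma adjusted p = 0.00570). At 30 days it did not pass, though it did with the rat as a block (0.0202). Epm2a, the glycogen phosphatase laforin, at 3.80 in contralateral muscle, was lower at 2 and 10 days (-1.04 and -0.68), and neither call held with the rat as a block (0.104 and 0.147). The brain and liver forms of phosphorylase were near the bottom of the scale: Pygb was at 0.386 ± 0.117 and Pygl at 0.447 ± 0.178 in contralateral muscle, and no trained muscle exceeded 0.732 for Pygb or 1.47 for Pygl. Pygb did not pass the filter. Pygl passed it only through trained muscles, since its highest contralateral value was 0.684, so its calls are given as a description. At 30 days Pygl passed the test (0.53, limma adjusted p = 0.00907). With the rat as a block that call was lost (0.158) and 1 came at 2 days (0.0432).

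Of the 44 calls on these named genes of the wider list, 20 held under every alternative in which the gene was tested and with any 1 muscle left out. With a mean of at least 10 as the filter, Pgm2l1, Prkaa1 and Prkag2 were not tested, so 7 of the 20 calls were not run there. The 20 calls were those on Prkag3 and Ppp1r1a at 10, 20 and 30 days, on Pgm2l1 at 2, 10 and 20 days, on Pgm1, Stbd1 and Prkaa1 at 2 and 10 days, on Prkag2 at 20 and 30 days, on Prkar2a at 10 and 20 days and on Calm2 at 20 days. The other 24 were lost in at least 1 of these settings.

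**Figure D4:**
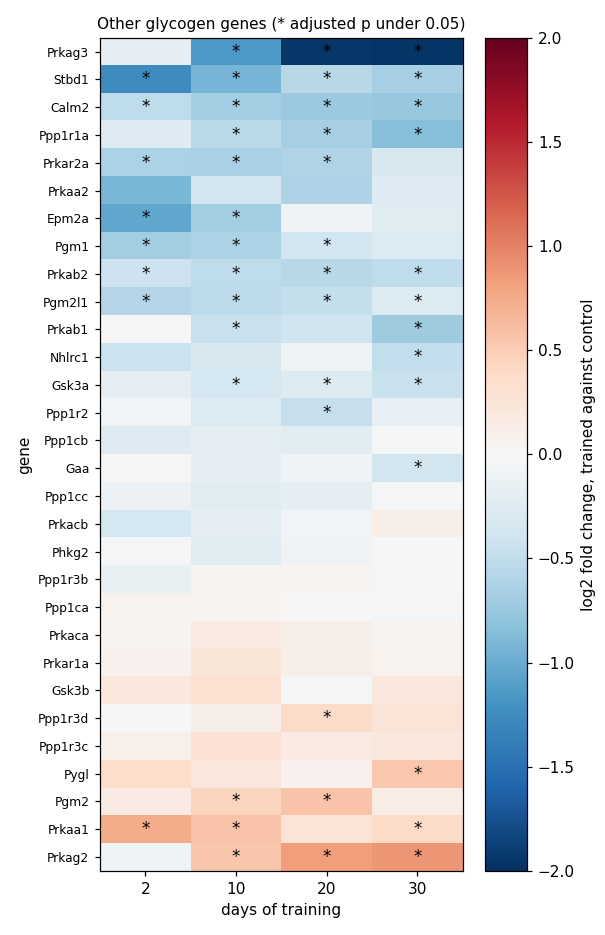
Log2 fold change of 30 of the 33 other glycogen genes (rows, ordered by their mean change) in 3 trained muscles against 12 contralateral muscles at each number of training days (columns). Blue is lower and red higher in trained muscle, the colour scale runs from -2 to 2, and an asterisk marks a limma adjusted p under 0.05. Prkag3 is the darkest row, at -1.97 after 30 days.

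Over the 24 muscles the breakdown genes followed each other closely. Pearson's r on the log2 scale was 0.92 between Pygm and Phkg1 and 0.95 between Phka1 and Phkb, and Gbe1 ran against Pygm at -0.84. Ppp1r3a and Ugp2 were correlated at 0.84 and Gys1 and Ugp2 at 0.75, while Gys1 and Pygm were at 0.03. These values describe muscles that share rats, groups and scaling factors. Of 3832 other genes with a mean of at least 10, 4 of the 5 most like Pygm were Cuedc1 (0.956), Tor3a (0.949), Gid4 (0.942) and Camk2g (0.941). The 5 most like Gys1 were Epas1 (0.905), Cs (0.881), Perm1 (0.862), Slc16a1 (0.846) and Mtus1 (0.842).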

How the data were processed

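RNA was sequenced from 24 tibialis anterior muscles of 12 rats by poly-A enrichment and a directional paired-end kit. The authors trimmed reads, aligned them with STAR in Partek Flow to Rnor_6.0 and deposited values, read here as TPM-type, for 20027 Ensembl transcripts. The submitters' processing notes also name DESeq2 and rn6. The deposited table holds no counts, so no count model was run, and precision from depth is unknown. The unit was read from these equal totals and from values of short transcripts that lay close to a constant over length. Ends of transcripts are given 1 base before the end in the table, which lies past the last base. A second table with fewer genes, and a table of the authors' own comparisons (p-values, FDR, log2 ratios), were not used.

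For each muscle a median-of-ratios factor, from 16230 transcripts above 0 in all muscles, was divided out, and transcripts were summed per gene symbol. Genes at 1 or above in 3 or more muscles were fitted as log2(value + 1), which understates the change of low genes, with limma 3.58.1 in R 4.3.3. The fit had 5 groups: 12 contralateral muscles and 3 trained muscles per time point, each from its own rat. P-values were adjusted by Benjamini-Hochberg over all genes within a comparison, and 0.05 was the threshold. Pairs were fitted with the rat as a block, and contralateral groups with an F test. The rat number in the labels pairs the muscles: deviations from group means correlated at a median r of 0.174 (0.0277 to 0.343) within 12 rats and -0.00964 between rats. Of 276 pairs of libraries 0 were identical. The fit was tested on simulated data. Tables and plots used Python 3.11.15, numpy 2.4.6, pandas 2.3.3 and matplotlib 3.10.9. Promoters came from RefSeq tables (GRCr8), which matched 9 of 9 genes.

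All 9 members are named. Of the wider list, those passing at 2 or more time points are named, besides Pgm1, Ppp1r3c, Gsk3b, Pygb and Pygl, and the 5 genes most correlated with Pygm and with Gys1. A few genes that this rule takes are not reported here by name and stay in the counts of the list. Members and lists were chosen with earlier results of these data known. Alternatives were the values as deposited, a pseudocount of 0.1, no filter, a mean of at least 10, the highest transcript, an intensity trend, the rat as a block, time-matched controls and each muscle left out in turn.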

Additional observations from a re-analysis of the deposited data

Results flagged for a closer look

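Direct contrasts between the 3 trained muscles at 30 days and the 3 at 2 days differed for 4 of the 9 genes. Ugp2 was higher at 30 days by 0.81 on the log2 scale, Ppp1r3a by 0.85, Gys1 by 0.62 and Phkg1 by 0.57 (limma adjusted p = 0.00152, 0.00376, 0.00404 and 0.0468). Since all time points share 1 control group, this contrast is by construction the difference between the changes from control at 30 and 2 days. Those changes went from below control to above it for Ugp2, Ppp1r3a and Gys1, and from further below to nearer control for Phkg1. The difference of the within-rat changes, with the rat as a block, passed for none of the 4 genes (0.0776, 0.160, 0.0659 and 0.155). Phkg1 was the least firm, since it also missed the threshold with a pseudocount of 0.1 (limma adjusted p = 0.0565) and without any 1 of 5 trained muscles.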

How the results depend on the processing

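Of 23 calls on the 9 genes at single time points, 16 held under every alternative and with any 1 muscle left out, among them all on Pygm, Phkg1 and Gbe1. Total depth is unknown, so the limit that depth sets cannot be given. The rat as a block changed no other call on the 9 genes than those on Gys1, Ppp1r3a and Ugp2 at 30 days and on the 4 genes that differed between 30 and 2 days. The cause of changes between settings was not tested, except that fewer genes enter with a mean of at least 10 and fewer muscles serve as controls with time-matched controls.

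Members called at 30 days were 8, against 5 as deposited, 5 with the rat as a block and 4 with time-matched controls. Members called between 30 and 2 days were 4, against 1 as deposited and 0 with the rat as a block. Genes called were 1654, 1420, 1064 and 1155 at the 4 time points with a mean of at least 10. With time-matched controls 2007, 1589 and 1121 genes were called at 10, 20 and 30 days, and with the rat as a block 1377 at 30 days. Genes of the wider list called at 20 and 30 days were 7 and 7 with the rat as a block and 8 and 6 with time-matched controls.

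With 1 muscle left out, members called were 5 to 8 at 2 days, 5 to 8 at 30 days, 2 to 7 between 30 and 2 days and 0 to 3 between 10 and 2 days. Genes called were 1513 to 3505 at 2 days, 2147 to 3296 at 10 days and 1472 to 2440 at 30 days, and genes of the wider list 10 to 16 at 20 days and 8 to 15 at 30 days. The lowest counts of genes came without 2-day muscle 2, 10-day muscle 1 and 30-day muscle 2, all trained.

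Values that changed sign had not passed in either setting. As deposited, Ppp1r3a and Ugp2 at 10 days became 0.0055 and 0.12, Gyg1 at 30 days -0.0901, and Gbe1 and Pygm between 30 and 2 days -0.0912 and -0.19. With the highest transcript Ugp2 at 10 days was 0.11. With the rat as a block or time-matched controls, Ppp1r3a at 10 days was 0.0362 and Gyg1 at 30 days -0.0099. With 1 muscle left out, Ugp2 at 10 days ranged from -0.12 to 0.15, Ppp1r3a at 10 days from -0.19 to 0.0132 and Ppp1r3a at 20 days from -0.034 to 0.32.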
